A study of Mus musculus with 5 samples.

Results

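Deoxynucleoside triphosphates (dNTPs) are the building blocks of DNA, and the 10 enzyme genes that make, balance or break them down were examined in erythroid marrow cells of wild-type (WT) mice and of mice with a mutant mitochondrial DNA polymerase. The genes were chosen by name for their place in the pathway, with earlier results of these data known. They are Rrm1, Rrm2, Rrm2b, Tyms, Tk1, Dtymk, Dctd, Samhd1, Dck and Dut. All 10 were measured, among 22180 genes in all. Each was read from its brightest probe set, by mean over all arrays, among those that the platform's annotation pairs with that symbol alone.

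Marrow cells were depleted of CD45-bearing leukocytes and then selected for Ter119, an antigen of erythroblasts and red cells, per the labels' protocols. The WT group is 2 arrays labelled Polgtm1Lrsn wt/wt, and the Polg mutant group is 3 arrays labelled Polgtm1Lrsn mt/mt, the homozygous mtDNA-mutator genotype in which the polymerase lacks proofreading. All mice were on a C57BL/6 background and came from crosses in which both parents were Atg7 flox/flox and PolG wt/mt, the dam was Epo-cre wt/wt and the sire Epo-cre ki/wt. No label states which offspring inherited Cre, so Atg7 status may differ between arrays. The series' design text says that the mice had been bled, although each label's treatment field reads none. The title calls the mutator mice aged, and no label gives an age. The mutation is in the germline, so every tissue carries it and not the erythroid cells alone. Whether each array is a different animal is not stated in the labels, and the p-values then reflect the spread of these samples alone, part of which may be technical. Of 12 erythroid defining markers listed, 9 were analysed here, and their mean log2 level was 12.07 and 11.90 on the WT arrays and 11.67, 11.76 and 11.73 on the Polg mutant arrays.

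Dividing cells raise their dNTP pools as they enter S phase. Ribonucleotide reductase, built of the large subunit Rrm1 and the small subunit Rrm2, converts ribonucleotides to deoxyribonucleotides. Thymidine nucleotides come from dUMP, which Dctd and Dut supply and Tyms methylates, or from thymidine salvaged by Tk1, and Dtymk adds the next phosphate to both. Rrm2, Tyms and Tk1 are classical S-phase genes under E2F control, and Dck, which salvages deoxycytidine, is grouped with them here although it is also expressed in resting cells. Rrm2b, the p53-inducible small subunit, serves DNA repair and mitochondrial DNA outside S phase, and Samhd1 hydrolyses dNTPs and keeps the pool low in cells that are not replicating. Mitochondrial DNA, the substrate of Polg, is replicated throughout the cell cycle and draws on both sources.

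The start-site sequences of the S-phase reductase pair, lower in the mutant, and of the 2 enzymes that were higher are shown first. These genes were picked by direction, so the print does not test whether a motif follows direction. Of the 10 genes, 9 had an entry among the RefSeq promoters of build GRCm38.p6, and Rrm2b had none. Each line gives the 250 bases before a start, on the gene's strand, at chr7:102441445-102441694 (plus strand) for Rrm1, chr12:24708004-24708253 (plus) for Rrm2, chr8:48098842-48099091 (plus) for the first start of Dctd and chr2:157135097-157135346 (minus) for Samhd1. Capitals mark matches, on either strand, to a CCAAT box, to a CHR element, whose letters are TTTGAA, or to an E2F core. The E2F core was searched as TTCCCGC, in its second form as TTCGCGC, in the third form as TTGGCGC and in the fourth form as TTGCCGC, and in the members no match of one motif overlapped another.
Rrm1: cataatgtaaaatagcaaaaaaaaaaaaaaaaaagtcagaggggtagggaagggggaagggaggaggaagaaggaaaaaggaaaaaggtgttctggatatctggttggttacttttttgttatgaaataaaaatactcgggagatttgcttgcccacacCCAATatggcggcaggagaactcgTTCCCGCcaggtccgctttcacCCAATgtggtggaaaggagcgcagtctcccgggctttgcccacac
Rrm2: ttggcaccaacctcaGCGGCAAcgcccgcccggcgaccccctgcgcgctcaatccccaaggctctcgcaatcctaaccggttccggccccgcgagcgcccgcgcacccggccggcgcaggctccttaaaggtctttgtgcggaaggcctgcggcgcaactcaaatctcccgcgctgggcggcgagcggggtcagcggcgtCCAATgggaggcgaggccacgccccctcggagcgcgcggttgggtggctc
Dctd: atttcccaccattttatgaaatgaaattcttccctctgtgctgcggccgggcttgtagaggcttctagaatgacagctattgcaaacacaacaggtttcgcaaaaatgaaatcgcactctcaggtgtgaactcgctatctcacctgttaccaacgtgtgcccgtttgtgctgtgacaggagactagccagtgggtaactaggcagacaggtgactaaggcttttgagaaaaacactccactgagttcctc
Samhd1: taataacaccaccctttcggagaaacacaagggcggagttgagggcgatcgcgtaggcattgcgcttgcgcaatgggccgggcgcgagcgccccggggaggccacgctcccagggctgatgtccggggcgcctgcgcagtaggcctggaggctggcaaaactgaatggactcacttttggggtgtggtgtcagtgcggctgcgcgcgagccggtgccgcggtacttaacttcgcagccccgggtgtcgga
The E2F core lay 67 to 61 bases before the start in Rrm1 and 235 to 229 bases before it, on the other strand, in Rrm2, and both windows held CCAAT boxes. Neither the Samhd1 window nor the Dctd window printed held a match, while the windows of the other two Dctd starts each held 1 CCAAT box. Over the members, an E2F core was found for 3 of 9 genes (Rrm1, Rrm2 and Dtymk), a CCAAT box for 4 (the same genes and Dctd) and a CHR element for 1 (Dck). The windows of Tyms, Tk1, Dck and Dut, which were also lower in the mutant, held no E2F core. Those of Tyms, Tk1, Dtymk, Dut and the Dctd starts not printed reached into the annotated gene. Counted by window, as Dctd has several starts, 3 of 11 member windows held an E2F core, 5 a CCAAT box and 1 a CHR element. Of all 32851 windows of this length, 7.89% held the E2F core letters, 33.8% a CCAAT box and 16.0% a CHR element. These matches are letters in a window and were not tied to any binding measurement.

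The main comparison asked how the 10 genes differed between Polg mutant and WT cells. Of the 8 S-phase enzymes, 7 were lower in the mutant and 1, Dctd, was higher, while of the 2 enzymes that act outside S phase Samhd1 was higher by 0.19 and Rrm2b differed by -0.02 on the log2 scale. The largest difference was that of Dck, 1.62-fold lower, followed by Rrm2 at 1.50-fold lower and Dctd at 1.48-fold higher. In 6 genes all 3 mutant values were below the lower WT value, as they were in 9.73% of all genes tested, and in 2 genes all 3 were above the higher WT value, as in 8.36% of all genes. With limma, 0 of the 10 passed an adjusted p under 0.05, and neither did any other gene (0% of 22180). At an unadjusted limma p under 0.05 there were 6 lower members, against 5.33% of all genes, and 2 higher ones, against 4.18%. The members were picked with earlier results of these data known, so these counts describe them and are not a test. In bulk RNA, fewer cells of a type and less RNA per cell cannot be told apart.

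**Figure D1:**
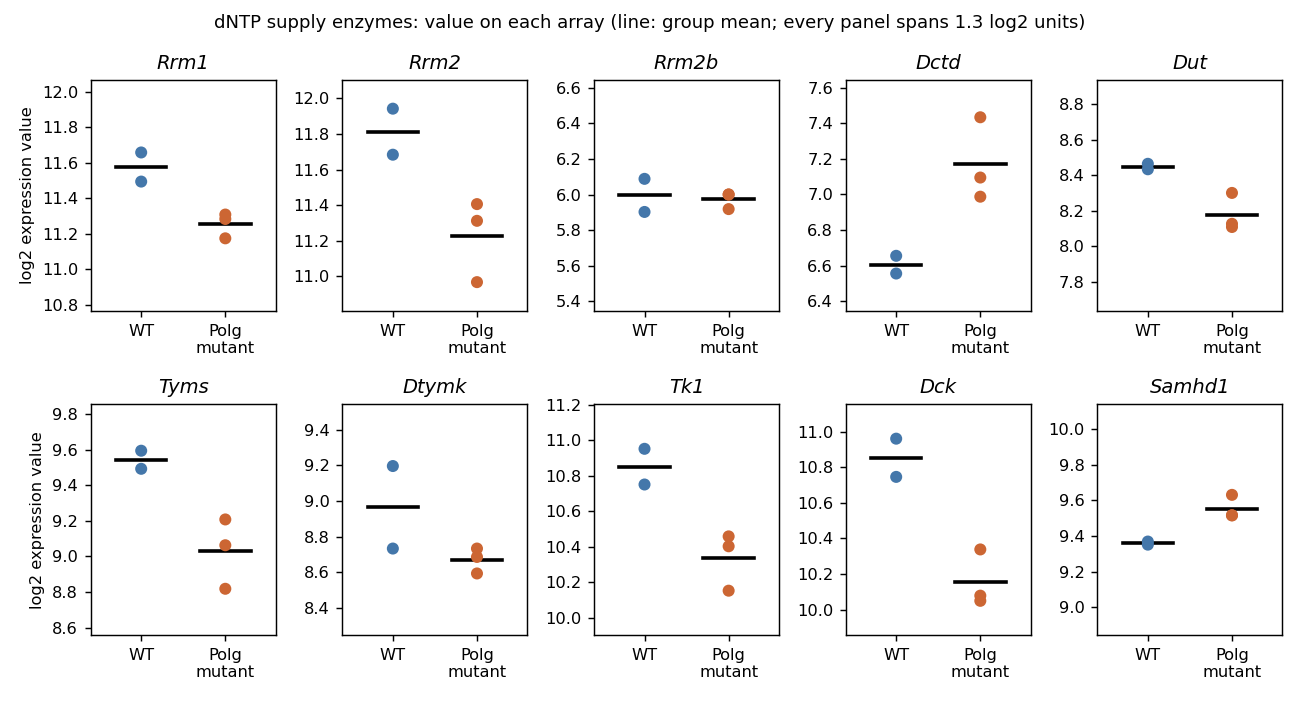
Each panel plots the log2 expression value of 1 gene on the 2 WT arrays (blue) and the 3 Polg mutant arrays (orange), with a line at each group mean; every panel spans the same number of log2 units. Rrm1, Rrm2, Dut, Tyms, Tk1 and Dck lie lower on all Polg mutant arrays, Dctd and Samhd1 lie higher on all of them, and Rrm2b and Dtymk overlap or touch.

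The large reductase subunit gene Rrm1 read 11.66 and 11.49 on the WT arrays and 11.18, 11.31 and 11.28 on the Polg mutant arrays, on the log2 scale. The groups did not overlap, and the gap between the lowest WT and the highest mutant value was 0.19. The difference, mutant minus WT, was -0.32 ± 0.07 (SE, limma adjusted p = 0.330), which only 6.00% of all genes equalled or went below. The small S-phase subunit gene Rrm2 read 11.68 and 11.94 in WT and 10.97, 11.31 and 11.41 in the mutant. Polg mutant replicate 1 was the lowest of the 5 arrays, and the other two mutant arrays were also below both WT arrays. The Rrm2 difference was -0.58 ± 0.18 (SE, limma adjusted p = 0.453), and 1.39% of all genes had one as low. A second, dimmer Rrm2 probe set read 5.80 and 6.17 in WT and 5.72, 5.80 and 5.69 in the mutant, where WT replicate 1 and Polg mutant replicate 2 were tied, and with the mean of both probe sets the Rrm2 difference was -0.42.

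Rrm2b, the alternative small subunit gene, showed no separation of the groups. It read 5.90 and 6.09 in WT and 6.00, 5.92 and 6.00 in the mutant, so all mutant values lay between the 2 WT values. Its difference of -0.02 had a 95% interval from -0.23 to 0.18 (limma adjusted p = 0.930). Its sign turned with single arrays, to 0.071 without WT replicate 2 and to 0.0050 without Polg mutant replicate 2. The values lay above the median (5.10 to 5.13) and below the upper quartile (6.56 to 6.60) of every array, and signal over background was not known. Within each array, Rrm2 minus Rrm2b, each centred on its mean over the 5 arrays, was 0.30 and 0.37 in WT and -0.51, -0.09 and -0.07 in the mutant. Between the group means this centred difference changed by -0.56. Rrm2 itself changed by -0.58 and Rrm2b by -0.02. Without centring, Rrm2 read far above Rrm2b in both groups, with means of 11.81 against 6.00 in WT and 11.23 against 5.97 in the mutant. No p is given because the members were chosen with earlier results of these data known.

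At the entry to the thymidylate route, Dctd and Dut both supply dUMP. Dctd, which deaminates dCMP to dUMP, read 6.65 and 6.56 in WT and 7.43, 6.99 and 7.09 in the mutant. Every mutant array was above both WT arrays, by at least 0.33, and the spread within the mutant group was wider (SD 0.23, n = 3) than in WT (SD 0.07, n = 2). The difference was 0.57 ± 0.16 (SE, limma adjusted p = 0.417), and 2.16% of all genes had one as high. Dut, which makes dUMP from dUTP and so keeps uracil out of DNA, went the other way. It read 8.43 and 8.46 in WT and 8.13, 8.30 and 8.11 in the mutant, a difference of -0.27 ± 0.07 (SE, limma adjusted p = 0.395) between groups that did not overlap. A second Dut probe set read 4.30 on 4 arrays and 4.41 on Polg mutant replicate 3. With the mean of its probe sets the Dut difference was -0.12.

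Tyms, thymidylate synthase, read 9.59 and 9.49 in WT and 8.82, 9.06 and 9.21 in the mutant. The groups were 0.28 apart at their nearest values, and the difference was -0.51 ± 0.14 (SE, limma adjusted p = 0.387). Dtymk, the thymidylate kinase, read 9.20 and 8.73 in WT and 8.59, 8.73 and 8.69 in the mutant. Its groups touched, because WT replicate 2 and Polg mutant replicate 2 held the same value. The Dtymk difference of -0.29 ± 0.16 (SE, limma adjusted p = 0.638) rested on WT replicate 1, and was -0.062 without that array and -0.53 without WT replicate 2.

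Both salvage kinase genes were lower in the mutant. Tk1, the cytosolic thymidine kinase of S phase, read 10.75 and 10.95 in WT and 10.15, 10.40 and 10.46 in the mutant. The gap between the groups was 0.29, and the difference was -0.51 ± 0.13 (SE, limma adjusted p = 0.360). Dck, the deoxycytidine kinase, read 10.96 and 10.75 in WT and 10.08, 10.34 and 10.05 in the mutant. Its groups were the farthest apart of the members that did not overlap, by 0.41, and its difference of -0.70 ± 0.13 (SE) had the smallest limma adjusted p of the 10 genes (0.268). Only 0.816% of all genes had a difference as low as Dck, against 2.02% for Tk1 and 2.01% for Tyms. Leaving out 1 array kept Dck between -0.81 and -0.59 and Tk1 between -0.61 and -0.41.

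Samhd1, the dNTP hydrolase, read 9.35 and 9.37 in WT and 9.63, 9.52 and 9.52 in the mutant. The shift was small, 1.14-fold, but the arrays of each group lay close together and the groups did not overlap. The difference was 0.19 ± 0.05 (SE, limma adjusted p = 0.344), and 12.9% of all genes had one as high. Samhd1 is strongly expressed in myeloid cells, and the neutrophil marker list (15 of 15 measured) had mean log2 levels of 8.12 and 7.18 in WT and 8.42, 8.94 and 7.29 in the mutant. The log2 of its summed level ran from 12.44 to 13.50 in WT and from 12.55 to 13.71 in the mutant, and for 0 of its 15 genes were the groups apart. Over all genes the groups were apart for 8.36% in the higher direction and 9.73% in the lower, so 0 of 15 shows little either way. Of the neutrophil genes 13 were higher in the mutant and 2 lower, with a median difference of 0.63, and their part in the Samhd1 difference was not tested. The macrophage and monocyte list (14 of 14 measured) had mean levels of 6.10 and 6.11 in WT and 6.28, 6.28 and 5.96 in the mutant, and its summed level overlapped between groups, at 11.21 to 11.43 against 11.03 to 11.82, with 8 genes higher, 4 lower and a median of 0.05. Of its genes Siglec1 and Marco, named after their values were seen, had a single value on all 5 arrays. This log2 scale has no true zero, so none of these markers could be read as absent.

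**Figure D2:**
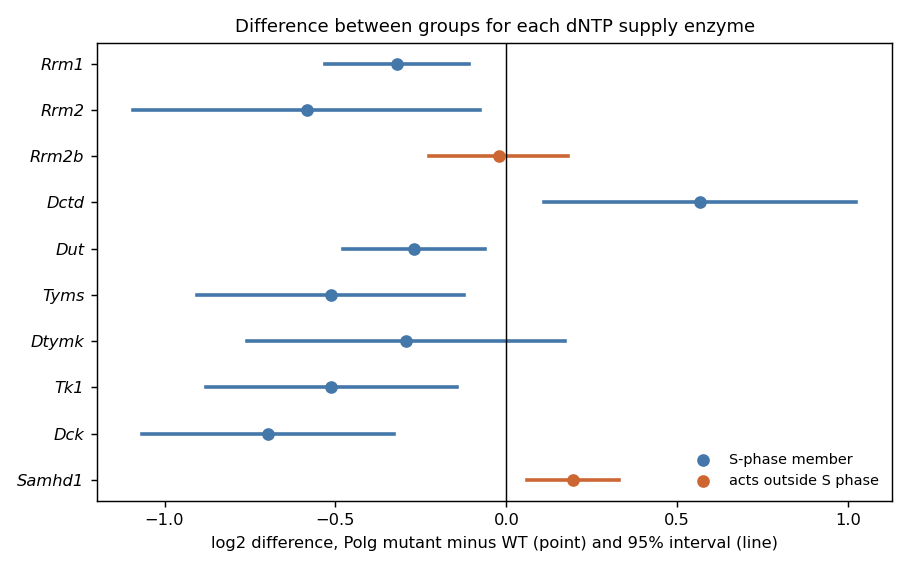
Points give the log2 difference, Polg mutant minus WT, of each gene in order of role, and lines its 95% interval from limma over 2 WT and 3 Polg mutant arrays, not adjusted for the number of genes. The intervals of Rrm2b and Dtymk include 0, those of Dctd and Samhd1 lie above it, and those of the other six lie below it.

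The contrast between the S-phase enzymes and the pair that acts outside S phase was formed on each array from values centred on each gene's mean. The 8 S-phase enzymes averaged 0.23 and 0.16 in WT and -0.22, -0.08 and -0.10 in the mutant, and Rrm2b with Samhd1 averaged -0.10 and -0.00080 in WT and 0.09, -0.01 and 0.03 in the mutant. S phase minus outside was thus 0.33 and 0.16 in WT against -0.30, -0.07 and -0.13 in the mutant. The groups did not overlap, and their means differed by -0.41. The median difference was -0.42 over the 8 S-phase genes and 0 over all genes tested. Without Dctd, the other S-phase enzymes averaged 0.31 and 0.24 in WT and -0.32, -0.10 and -0.13 in the mutant. Polg mutant replicate 1 stood farthest from WT in both sets, and without it the contrast was -0.35. The number of members at an unadjusted limma p under 0.05, 8 over all arrays, was 1 without WT replicate 1 (Tk1), 3 without WT replicate 2 (Rrm1, Dtymk and Dck) and 5 without Polg mutant replicate 2. Both fits that leave out a WT array borrow the spread of the mutant arrays for the WT array that remains. In these fits 8.03% (without WT replicate 1) and 4.17% (without WT replicate 2) of all genes passed an adjusted limma p under 0.05, and 0 of the 10 members did.

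Genes of the replication fork were lower alongside the S-phase enzymes. Of 30 fork and replication genes listed, 29 were measured, and 28 were lower in the mutant and 1 higher. In 23 the mutant values were all below those of WT, as in 9.73% of all genes tested. The 1 higher gene, named after its values were seen, was Rfc5, a clamp loader subunit gene, at 0.10. The median difference of the 29 genes was -0.28. An unadjusted limma p under 0.05 was found for 12, all of them lower, against 5.33% of all genes. When adjusted over all genes, 0 passed. The centred fork mean was 0.20 and 0.15 in WT and -0.25, -0.04 and -0.06 in the mutant, the same order of arrays as in the S-phase enzymes. Fen1 and Uhrf1, the genes of smallest limma p in this list, differed by -0.47 ± 0.07 (SE) and -0.60 ± 0.14. Prim2, the large primase subunit gene, differed by -0.41 ± 0.12 (SE) and Rpa1, which coats single-stranded DNA, by -0.24 ± 0.07. The list of E2F factors and their partners in the DREAM complex, which hold or release S-phase genes, was fully measured. Of its 17 genes 16 were lower and 1 higher, and the median was -0.37. The groups were apart for 12 lower genes and 1 higher gene, against 9.73% and 8.36% of all genes. E2f4, the main repressive E2F, differed by -0.47 ± 0.10 (SE), Tfdp2, a dimerisation partner, by -0.40 ± 0.10, the DREAM subunit gene Lin9 by -0.51 ± 0.13 and Rb1 by -0.13 ± 0.04. At an unadjusted limma p under 0.05 there were 10 genes, all lower, against 5.33% of all genes, and 0 passed when adjusted. The 1 higher gene was E2f5 at 0.55 ± 0.20 (SE), named after its values were seen. Its WT values, 5.31 and 4.79, were dim.

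Markers of the sorted lineage were lower as well. The 9 measured erythroid markers were all lower in the mutant, with a median difference of -0.23. For 8 of them the groups did not overlap, as in 9.73% of all genes in that direction. The log2 of their summed level was 15.50 and 15.34 in WT and 15.14 to 15.22 in the mutant. B cell markers, of which 7 of 9 were measured, were lower in all 7 with a median of -0.29 and 0 genes apart, and the log2 of their summed level was 8.33 to 9.11 in WT and 7.78 to 8.55 in the mutant. Early progenitor markers, 8 of 8 measured, were higher for 5 genes and lower for 2, with a median of 0.11, and their summed level overlapped, at 10.15 to 10.61 in WT against 10.21 to 10.80. For 1 of them, Gata2, the groups were apart, with a difference of 0.50 (limma adjusted p = 0.638). The summed level of the T and NK cell list (9 of 9) also overlapped, at 8.39 to 9.25 against 8.64 to 9.14, and 1 gene, Cd3g, was apart, at -0.05. The summed level of the megakaryocyte and platelet list (5 of 8) did not overlap, at 10.71 to 10.99 in WT against 9.62 to 9.92, whereas its mean log2 level did, at 6.87 and 7.71 against 6.71, 6.95 and 6.70. For 1 of its genes, Gp9, the groups were apart, with a difference of -1.36 (limma adjusted p = 0.200). Gp9 was the brightest of these genes on every array, with means of 10.42 in WT and 9.06 in the mutant. It therefore weighed most in the summed level, and the groups overlapped in the other measured genes of this list. Over all genes, the groups were apart for 8.36% in the higher direction and 9.73% in the lower. Counts of 0 or 1 gene in lists this short are not a result about those lists. Gata2, Cd3g and Gp9 were named after their values were seen. The part of these cell type levels in the enzyme differences was not tested.

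**Figure D3:**
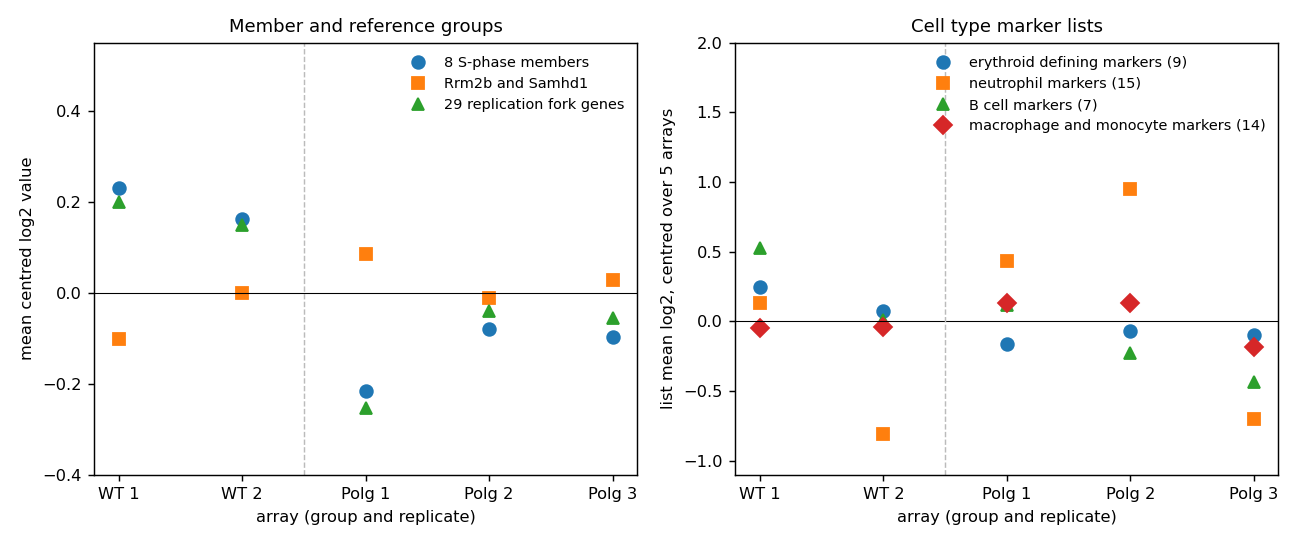
The left panel plots, for each array, the mean log2 value of the 8 S-phase enzymes, of Rrm2b with Samhd1 and of 29 replication fork genes, each gene centred on its mean over the 5 arrays. The right panel plots the mean log2 level of 4 marker lists, each centred over the 5 arrays; the S-phase, fork and erythroid means are higher on both WT arrays than on any Polg mutant array, whereas the neutrophil means follow no such order.

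Genes that control the turnover of these enzymes or the checkpoint above them gave a mixed picture. Of 11 such genes 9 were measured, 7 were lower and 2 higher, with a median of -0.08. Cdkn1a, the gene of the p21 inhibitor that halts cells before S phase, read 7.33 and 6.64 in WT and 10.50, 9.69 and 9.72 in the mutant, a difference of 2.99 ± 0.38 (SE, limma adjusted p = 0.224). Atr, a replication stress kinase that protects Rrm2 protein from degradation in damaged cells, differed by 0.50 ± 0.09 (SE, limma adjusted p = 0.267), with all mutant arrays above WT. Wee1 and Fzr1, the latter an activator of the ligase that degrades Rrm2 and Tk1 proteins after mitosis, differed by -0.18 and -0.22. Among 7 genes of the systems that reduce ribonucleotide reductase, the median was -0.01 and only Txnrd2, the mitochondrial thioredoxin reductase gene, had an unadjusted limma p under 0.05, at -0.17 ± 0.04 (SE). Over all genes, 5.33% were lower and 4.18% higher at that p, so 1 of 7 is not a result about this list. Glrx, the cytosolic glutaredoxin gene, differed by 1.21 ± 0.88 (SE), within the spread of its arrays.

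The mitochondrial branch of dNTP supply, which feeds the polymerase mutated here, was split. Of 11 genes 7 were measured, 4 higher, 2 lower and 1 (Nt5m) at a single value on all arrays. Dguok, which salvages purine deoxynucleosides inside mitochondria, read 8.02 and 8.15 in WT and 7.66, 7.76 and 7.79 in the mutant, a difference of -0.35 ± 0.07 (SE, limma adjusted p = 0.271). Cmpk2, the mitochondrial UMP/CMP kinase, read 11.10 and 10.81 in WT and 10.47, 10.46 and 10.43 in the mutant, a difference of -0.50 ± 0.10 (SE, limma adjusted p = 0.283). Both kinase genes were lower on every mutant array, as Rrm2 and Tk1 were. The pyrimidine nucleotide carrier genes of the inner membrane lay on the other side. Slc25a33 read 5.48 and 4.94 in WT and 7.05, 6.68 and 6.22 in the mutant, a difference of 1.44 ± 0.33 (SE, limma adjusted p = 0.329) from WT levels that were dim. Slc25a36 differed by 0.65 ± 0.29 (SE, limma adjusted p = 0.638), also with groups apart. Tk2, the mitochondrial thymidine kinase gene, read 5.91 and 6.18 in WT and 6.40, 6.16 and 6.16 in the mutant, and the groups overlapped. Nt5m and Tk2 were named after their values were seen.

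Steps upstream of the deoxynucleotides were described in 3 lists. Of 13 measured genes of purine synthesis and salvage, 10 were higher and 3 lower, and the median was 0.20. The groups were apart for 6 higher genes and for 0 lower ones, against 8.36% and 9.73% of all genes. Ppat, the committed step of purine synthesis, read 7.53 and 7.45 in WT and 8.12, 7.85 and 7.83 in the mutant, a difference of 0.44 ± 0.11 (SE, limma adjusted p = 0.377). Prps1, which makes the ribose donor PRPP, differed by 0.53 ± 0.17 (SE), Atic, which completes the purine ring, by 0.43 ± 0.14 and Adsl by 0.21 ± 0.08. In the folate cycle that serves Tyms, 5 of 7 measured genes were higher and 2 lower, with a median of 0.19. Mthfd1, the trifunctional cytosolic folate enzyme gene, was 8.95 ± 0.08 (SD, n = 2) in WT and 9.57 ± 0.13 (SD, n = 3) in the mutant, with groups apart and a difference of 0.63 ± 0.10 (SE, limma adjusted p = 0.238). The folate carrier gene Slc19a1 differed by 0.19 ± 0.07 (SE), with groups apart. In pyrimidine synthesis Cad, the multifunctional first enzyme, was higher by 0.28 ± 0.08 (SE, limma adjusted p = 0.417), and the other four genes lay between 0 and 0.09. No gene of these 3 lists was lower with groups apart. At an unadjusted limma p under 0.05, 3, 1 and 1 genes of the 3 lists were higher and 0 lower, and 0 passed when adjusted. Over all genes, 4.18% were higher and 5.33% lower at that unadjusted p.

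**Figure D4:**
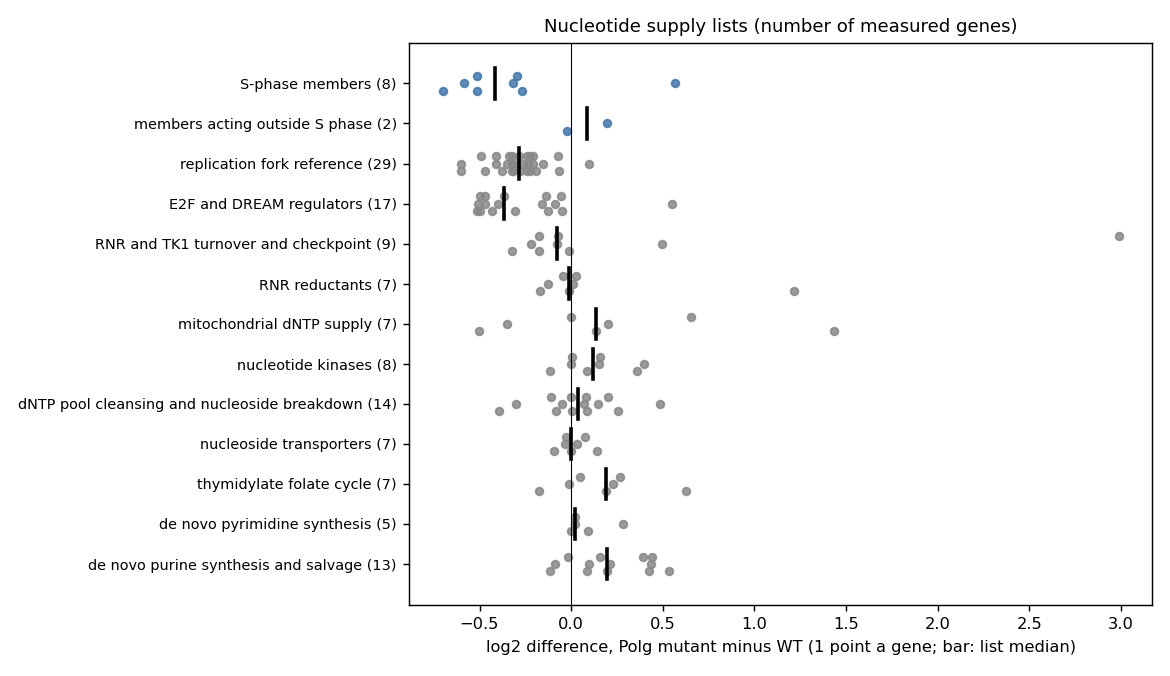
Each point is the log2 difference, Polg mutant minus WT, of 1 gene, by list, with the number of measured genes in parentheses and a bar at the list median; RNR is ribonucleotide reductase. Medians run from -0.42 in the S-phase enzymes to 0.20 in purine synthesis and salvage, and the farthest point to the right is Cdkn1a at 2.99.

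The remaining lists cover interconversion, breakdown and transport. Of the nucleotide kinases (8 of 11 measured) 6 were higher and 1 lower, and the median was 0.12. With groups apart, 3 were higher, 2 of these at an unadjusted limma p under 0.05. Over all genes, 8.36% were higher with groups apart and 4.18% were higher at that p. Among the kinases were Guk1, the guanylate kinase gene, at 0.15 ± 0.03 (SE) and the uridine-cytidine kinase gene Uck2 at 0.36 ± 0.12. Genes of dNTP pool cleansing and nucleoside breakdown (14 of 16 measured) had a median of 0.04, and 0 had an unadjusted limma p under 0.05. Of these Nt5c3, a pyrimidine nucleotidase gene of red cells, differed by -0.39 ± 0.14 (SE) and Cda, the cytidine deaminase gene, by 0.49 ± 0.19. Nucleoside transporters (7 of 7 measured) had a median of 0 and groups that overlapped in every gene, with Slc29a1, the main equilibrative carrier gene of red cells, at -0.09 ± 0.14 (SE).

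Patterns over the arrays were compared by the Euclidean distance between log2 profiles centred on their mean, among 7825 other genes with a mean log2 of at least 6. The 5 genes nearest to Rrm2 were Ankle1 (distance 0.08), Hmgb3 (0.12), Aurkb (0.13), Pidd1 (0.13) and its fellow member Tk1 (0.13). Their differences between the groups ran from -0.57 for Aurkb, the mitotic Aurora B kinase gene, to -0.50 for Pidd1, a death domain protein gene. The 5 nearest to Samhd1 were Prelid1, Ftsj3, Eif3m, Saraf and Plaa, at distances from 0.03 to 0.04. With 5 arrays such nearness is a description of these profiles.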

How the data were processed

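RNA from 100 ng input was labelled with biotin and hybridised to 1-colour Affymetrix whole-transcript arrays, per the labels' protocols. The authors deposited 1 table of log2 values for 41345 probe sets, with RMA and Partek 6.5 named per the submitters' processing notes. No label gives their genome build or probe annotation. The deposited log2 values (1.43 to 14.1) were used as they stood, signal over background was unknown, and precision is limited by the number of arrays. The platform's annotation paired 1 symbol with 23521 probe sets, several with 1814 and none with 16010. For each gene the brightest probe set paired with its symbol alone was kept, with no filter. Dim values here are those near or below the array medians (5.10 to 5.13).

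The 2 genotypes were tested in limma 3.58.1 under R 4.3.3 (genotype as the single term, empirical Bayes, two-sided, Benjamini-Hochberg over 22180 genes), which was tested on simulated data. Values that tie exactly between arrays were found in 67.9% of genes and in 3 members (Rrm2b, Dtymk and Samhd1). An exact permutation test cannot go below p = 0.1 with 2 against 3 arrays. The members and lists were chosen with earlier results of these data known. In each pathway list the genes named come from the 4 of smallest p, not always all of them. For Rrm2 and Samhd1 the 5 genes of nearest pattern are named, leaving out provisional symbols. Genes named otherwise are said to be. Alternatives were other centring and normalization, filters on dim or tied genes, other moderation, the mean of probe sets, the replicate number as a block, and leaving out each array.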

Additional observations from a re-analysis of the deposited data

How the results depend on the processing

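All members except Rrm2b kept their direction in every alternative run, and 0 of the 10 passed an adjusted limma p under 0.05 in any of them. The mean of probe sets made the Dut difference -0.12 and that of Rrm2 -0.42. The Rrm2b sign turned without WT replicate 2 (0.071) and without Polg mutant replicate 2 (0.0050), with values from -0.12 to 0.071 when 1 array was left out. The number of all genes passing, 0 as reported, was 9 after renewed quantile normalization, 9 after centring on brighter genes, 11 among genes above a log2 of 6, 114 among genes with 5 distinct values and 5 without moderation, and ran from 0 to 1781 when 1 array was left out. The cause was not tested. Members at an unadjusted limma p under 0.05, 8 as reported, numbered 1 to 7 when 1 array was left out. With the replicate number as a block they were 2 (Rrm2 and Tk1), with 0 members and 0 genes past the adjusted threshold. Deviations of same-numbered arrays correlated across genes at 0.19 for replicate 1 and -0.20 for replicate 2. With 2 WT arrays the WT deviations mirror each other, so these values cannot show whether same-numbered arrays are paired. The labels do not say that the numbers pair the samples. The S-phase median was -0.51 over genes with 5 distinct values, a filter that drops Dtymk, and ran from -0.45 to -0.34 when 1 array was left out. The S-phase contrast with Rrm2b and Samhd1 ran from -0.50 to -0.33 in the same fits, and it has no value under the filter on ties, which drops both genes.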
